A study of Mus musculus with 16 samples.

Results

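The early growth response factors Egr1, Egr2, Egr3 and Egr4 and their corepressors Nab1 and Nab2 were read on 16 arrays. Every probe set whose platform annotation names one of these 6 genes and no other was taken, which gave 10 probe sets of 45037, for 6 of 18193 genes with a symbol of their own. The genes were chosen by earlier results of the same arrays, namely by their measured responses to 4-hydroxy-tamoxifen (OHT) and cycloheximide (CHX). Those responses, in mesodermal cells and in ESC that carry the inducible Notch1, are therefore given as a description, with standard errors but without p-values. Responses of control cells, and differences between cell populations and lines, were tested. Differences involving uninduced NERT cells share arrays with the responses that chose the genes, so their p-values are not independent of that choice.

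EB5 NERT cells are mouse ESC carrying NERT, the Notch1 intracellular domain joined to a hormone-binding domain, which enters the nucleus once OHT is added. EB5 control cells are ESC with the pCAG expression vector alone. The lines are clones. EB5 NERT mesodermal cells, grown on collagen IV to day 4, gave 2 arrays each with CHX and OHT, with CHX alone, with OHT alone and with neither. EB5 NERT cells in ectodermal medium (ESCe) and in mesodermal medium (ESCm), EB5 control cells in ESCm and EB5 control mesodermal cells each gave 1 array with OHT and 1 without. The ESC were washed and kept in ESCe or ESCm medium for only 4 h. OHT was given at 1 µM for 4 h and CHX, which blocks protein synthesis, at 50 µg/ml for 4 h. Nothing states that the 2 arrays of a group came from separate cultures, so their spread may be technical.

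Egr factors are zinc finger transcription factors encoded by immediate early genes. Their transcription is switched on within minutes of growth factor or stress signals through MAP kinases, Elk factors and serum response factor, which bind CArG boxes, and through CREB at cAMP response elements (CRE). The signal needs no new protein, and inhibitors of translation are known to raise and prolong such transcripts. Nab1 and Nab2 have no DNA-binding domain of their own. They bind a repressive domain of Egr1, Egr2 and Egr3, which Egr4 lacks, and recruit the Chd4 chromatin remodelling complex. Nab2 is itself a known Egr target, so that the pair is described as a negative feedback loop.

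The promoters show which of these elements lie near the genes. RefSeq sequence upstream of the transcription start (build GRCm38.p6, 250 bases) was at hand for 4 of the 6 members, Egr2, Egr4, Nab1 and Nab2. It was searched on both strands for the CArG box, the CRE half-site TGACG, the core TGGGAA bound by the Notch partner RBP-J, and the Egr site GCGTGGGCG. Among 32851 promoters of the same length, 1.47% held a CArG box, 17.77% a CRE half-site, 21.59% an RBP-J core and 0.54% an Egr site. A stretch of 30 bases of the Egr2 promoter and the whole windows of Egr4 and Nab1 are shown because they hold the matches, with each match in capitals, in the direction of transcription. The positions are chr10:67537793-67537822 (plus strand), chr6:85513590-85513839 (minus strand) and chr1:52500449-52500698 (minus strand).
Egr2: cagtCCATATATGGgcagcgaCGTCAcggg
Egr4: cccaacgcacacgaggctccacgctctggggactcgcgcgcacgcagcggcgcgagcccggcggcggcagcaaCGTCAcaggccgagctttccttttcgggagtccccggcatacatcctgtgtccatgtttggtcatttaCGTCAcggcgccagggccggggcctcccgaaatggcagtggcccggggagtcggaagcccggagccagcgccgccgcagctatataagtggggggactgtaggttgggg
Nab1: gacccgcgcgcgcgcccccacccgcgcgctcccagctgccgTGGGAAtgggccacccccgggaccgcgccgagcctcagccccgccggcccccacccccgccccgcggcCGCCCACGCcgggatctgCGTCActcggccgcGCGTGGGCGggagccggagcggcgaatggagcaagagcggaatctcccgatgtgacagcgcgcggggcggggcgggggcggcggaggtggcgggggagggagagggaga
In Egr2 the CArG box CCATATATGG and a CRE half-site read on the opposite strand are separated by 7 bases, and another half-site, TGACG, lies further upstream. The same box lies in the windows of 3 of the 5 annotated starts of Egr2, which overlap, and the window of another start holds the box CCTTTTTTGG. Egr4 held 2 CRE half-sites on the opposite strand, 177 to 173 and 109 to 105 bases before the start, and no CArG box. Nab1 held an Egr site on each strand, 141 to 133 and 109 to 101 bases before the start, a CRE half-site between them and an RBP-J core at 209 to 204 bases. The window of Nab2 held no match. No match overlapped another, and a match of letters shows no binding.

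The deposited values are linear expression intensities, called expression values here. A gene is read from its probe set with the highest mean over the arrays. Changes are log2 ratios after 25 was added to each value, so that those of low genes are understated. A ratio against a mean below 25 is set against 25 and given as at least that large. Means are given ± SD (n = 2 arrays) for the mesodermal groups. Array medians were 42.0 to 46.9. As a check of the labels, Hes5 and Nrarp, direct Notch targets, rose in NERT mesodermal cells with OHT by 4.93 (SE 0.22) and 3.02 (SE 0.21) on the log2 scale and did not pass the test in control cells (0.03, SE 0.18, and -0.02, SE 0.19). The 6 ESC markers summed to 2825.9 to 6924.2 in mesodermal cells without CHX and 9733.9 to 11171.1 in ESC, and the 7 markers of mesoderm and primitive streak to 1466.8 to 4163.8 and 550.5 to 630.3. On every array without CHX 5 of 6 ESC markers lay below and 4 of 7 streak markers above their ESC values. With CHX the streak markers summed to 981.1 to 1332.

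With OHT alone, Egr1, Egr2 and Egr3 were higher in NERT mesodermal cells than without it, and Egr4 stayed near background. Egr1, which takes part in growth responses and in pituitary hormone expression, stood at 1329.9 and 1273 with OHT, against 195 and 184 without. The means were 1301 ± 40.2 and 189.5 ± 7.59, a 6.87-fold difference and a log2 change of 2.63 (SE 0.14), the 5th highest of 12188 genes. Egr2, which acts in hindbrain patterning and in the myelination of peripheral nerves, had 48.5 and 61.6 with OHT, against 13.9 and 19.6 without, at least 2.20-fold (0.94, SE 0.18). Egr3, which acts in muscle spindle formation, had 61.3 and 113 with OHT, against 18.7 and 12.5 without, at least 3.48-fold (1.43, SE 0.24). In all of these both induced arrays lay above both uninduced arrays. The share of all genes with groups so apart was not counted, so nothing is read from such separations here or below. Egr4, needed for male fertility, had 3.40 and 3.64 with OHT, against 7.49 and 3.6 without, all below the level of 25, so no ratio is given. More transcript per cell and more expressing cells cannot be told apart in these bulk samples. Markers of other cell types moved with OHT as well. The 3 neuroectoderm markers summed to 643.1 to 860.5 with OHT, against 207.3 to 322.5 without, and the 4 endoderm markers to 103.1 to 144.3 with OHT, against 227.9 to 280.6 without. The neuroectoderm markers did not move together, since Nes was higher (1.62, SE 0.37), Pax6 changed by 0.01 (SE 0.19) and Sox1 was lower (-0.59, SE 0.16). Limma called 0 of 3 neuroectoderm and 0 of the 3 endoderm markers that passed the filter, with 2 and 3 at an unadjusted p under 0.05. The part of these markers in the Egr values was not tested.

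With OHT the changes of the corepressors were smaller than those of Egr1, Egr2 and Egr3. Nab1 stood at 824 and 995 with OHT, against 677 and 693 without (1.33-fold, 0.39, SE 0.19). Nab2 stood at 329.8 and 531 with OHT, against 243 and 305 without (1.57-fold, 0.58, SE 0.24). The groups did not overlap in either gene, although in Nab2 the nearest induced and uninduced arrays were close. Of the 6 members 3 passed the adjusted threshold of 0.05 as higher, Egr1, Egr2 and Egr3, where 0.747% of all genes were called higher and 0.386% lower. Since this response chose the members, nothing is read from that count. It was 1 with a pseudocount of 100, without either replicate of the group with neither agent and without replicate 2 of the OHT group. Egr3 and Nab2 depended on the array, since without replicate 1 of the OHT group their changes were 1.76 and 0.90, and without replicate 2 of it 1.09 and 0.25.

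**Figure D1:**
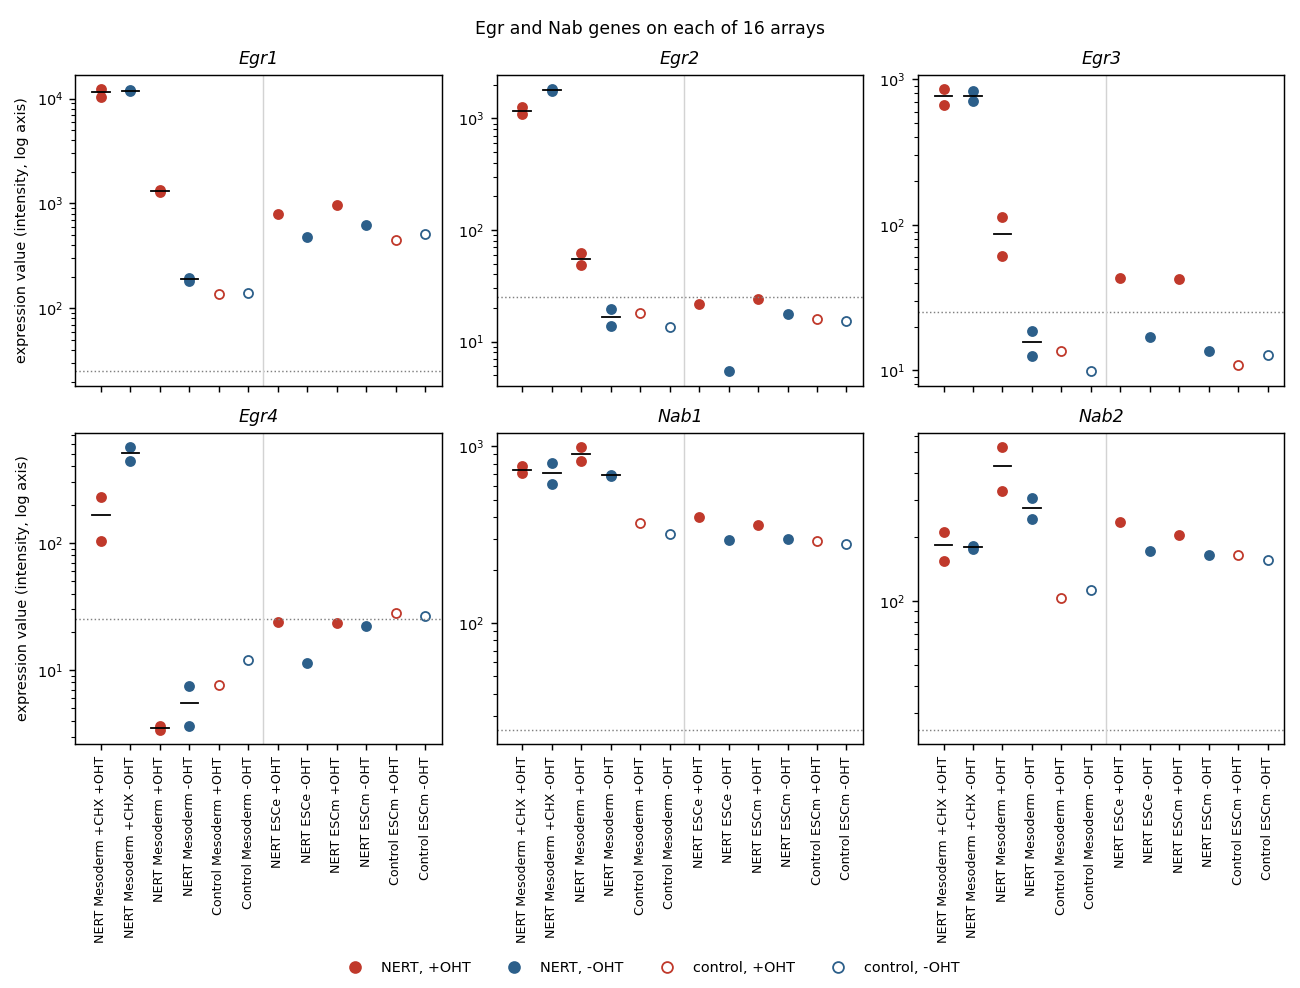
Expression value (intensity, log axis) of the 6 genes on each of the 16 arrays, by group. Filled points are NERT cells and open points control cells, red with and blue without OHT, black bars are means of 2 arrays and the dotted line marks 25. The 4 arrays with CHX stand above all others for each Egr gene, and for neither Nab gene.

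CHX alone raised the level of all 4 Egr transcripts far above that reached with OHT. Egr1 stood at 11723 and 12159 with CHX, against 195 and 184 without, means of 11941 ± 308 and 189.5 ± 7.59 (63.0-fold). Egr2 stood at 1748 and 1849 with CHX, against 13.9 and 19.6 without, at least 71.9-fold. Egr3 stood at 827 and 715 with CHX, against 18.7 and 12.5 without, at least 30.8-fold. Egr4, which was near background in every group without CHX, reached 570.3 and 442 with CHX, against 7.49 and 3.6 without, at least 20.2-fold. By log2 change the 4 genes ranked 1st, 3rd, 7th and 9th of 12188 (5.80, SE 0.14, for Egr1, 5.45, SE 0.18, for Egr2, 4.29, SE 0.24, for Egr3 and 4.11, SE 0.27, for Egr4). All 4 were called higher, where 24.3% of genes were called higher and 9.48% lower, and this contrast too was used to choose them. CHX moved a large part of the transcriptome, and several marker sums with it. The 4 stromal fibroblast markers summed to 919.1 to 1322.2 with CHX alone and 454.1 to 597.2 without. They did not move together, since Col1a1 was called higher (1.67, SE 0.22) and Dcn was lower without a call (-0.47, SE 0.22). The 3 neuroectoderm markers summed to 631.7 to 659.4 with CHX alone and 207.3 to 322.5 without. Limma called higher 2 of 6 ESC, 2 of 3 neuroectoderm, 1 of 4 stromal fibroblast and 1 of 3 tested endoderm markers. Of the 7 streak markers 6 were called lower. The part of these markers in the Egr values was not tested.

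The corepressors did not follow. Nab1 stood at 805 and 612 with CHX, against 677 and 693 without (1.03-fold, log2 change 0.03, SE 0.19), so the groups overlapped. Nab2 stood at 182 and 176.5 with CHX, against 243 and 305 without, 0.654-fold, with both CHX arrays below both others (log2 change -0.54, SE 0.24). The median gene changed by 0.11.

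Under CHX, no rise of an Egr gene with OHT was seen, and Egr2 and Egr4 were lower with it. Egr1 stood at 10434 and 12439 with CHX and OHT, against 11723 and 12159 with CHX alone (0.958-fold, -0.07, SE 0.14). Egr3 stood at 669 and 863 with both agents, against 827 and 715 with CHX alone (0.994-fold, -0.02, SE 0.24). In these 2 genes the groups overlapped. Egr2 stood at 1255 and 1091 with both, against 1748 and 1849 with CHX alone, 0.652-fold (-0.61, SE 0.18). Egr4 stood at 229 and 104 with both, against 570.3 and 442 with CHX alone, 0.329-fold (-1.54, SE 0.27). The groups of Egr2 and Egr4 did not overlap, and Egr4 had the lowest log2 change of 12188 genes in this contrast. Its size rested on the array, at -2.03 without replicate 1 of the CHX and OHT group and -1.05 without replicate 2.

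Nab1 and Nab2 overlapped between the groups under CHX, with 704 and 769.9 for Nab1 with CHX and OHT, against 805 and 612 with CHX alone (0.07, SE 0.19). Nab2 had 211 and 155 with both, against 182 and 176.5 (0.01, SE 0.24). This response too was used to choose the members, so nothing is read from the rank of Egr4 or from the calls. Egr4 was the single member called, as lower, where 0.0574% of genes were called lower and 0.738% higher. That call was lost without replicate 1 or 2 of the CHX alone group and without replicate 1 or 2 of the group with OHT alone.

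Taken against cells with neither agent, both agents together gave log2 changes of 5.73 (SE 0.14) for Egr1, 4.84 (SE 0.18) for Egr2, 4.28 (SE 0.24) for Egr3 and 2.57 (SE 0.27) for Egr4. All 4 were called higher, where 27.1% of genes were called higher and 11.1% lower, and this contrast too was used to choose them. Nab1 and Nab2 had 0.10 (SE 0.19) and -0.53 (SE 0.24), and the median gene 0.13. Set against OHT alone, both agents together gave 8.79-fold for Egr1, 21.3-fold for Egr2, 8.81-fold for Egr3 and at least 6.66-fold for Egr4, but 0.81-fold for Nab1 and 0.425-fold for Nab2. These comparisons share arrays, and the values stand side by side only.

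The OHT response with CHX minus that without it was negative for all 6 members, namely -2.70 (SE 0.20) for Egr1, -1.55 (SE 0.25) for Egr2, -1.45 (SE 0.34) for Egr3, -1.45 (SE 0.39) for Egr4, -0.32 (SE 0.26) for Nab1 and -0.57 (SE 0.34) for Nab2. Egr1 had the lowest difference of all 12188 genes and was the only member called, where 0.0246% of genes were called lower and 0.0164% higher. Since these responses chose the members, nothing is read from that rank or call. For Egr4 all values of NERT mesodermal cells without CHX lay below 25. Egr1 under CHX stood high on the array scale, at 63.6% to 74.0% of the highest value of its array, with 58 to 135 probe sets above it, against 0.9% to 8.9% on the other arrays. The table records no saturation, and whether the scale holds down differences at that height was not tested.

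**Figure D2:**
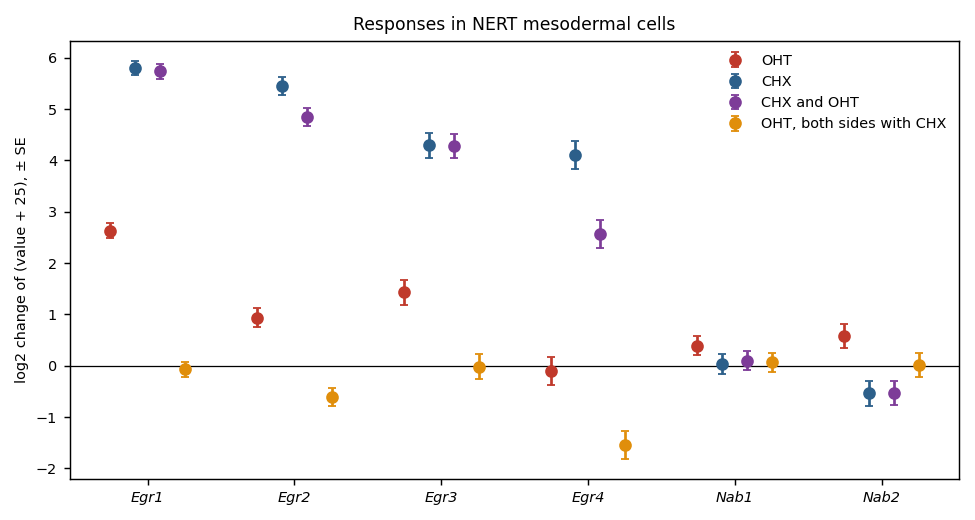
Log2 change of value plus 25 (± SE) in NERT mesodermal cells, for OHT, CHX, and CHX with OHT, each against neither agent, and for OHT with CHX on both sides. The CHX values of the Egr genes lie at 4.11 to 5.80 and those of the Nab genes at 0.03 and -0.54, while OHT under CHX lies between -1.54 and -0.02 for the Egr genes.

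Genes read by several probe sets did not always give the same picture. The other Egr2 probe set stood at 1289 and 748 with CHX and OHT, 1430.3 and 1356 with CHX alone, 13.7 and 32.8 with OHT and 6.38 and 9.86 with neither. It gave the same order of groups as the one used. Its means with OHT (23.24) and with neither agent (8.12) both lay below 25, so the OHT change of Egr2 rests on the probe set used. The other Egr3 probe set stayed between 10.5 and 36.8 on all 16 arrays and showed no response to CHX, with 19.9 and 18.5 with CHX and OHT, 31.2 and 16.2 with CHX alone, 26.6 and 21.5 with OHT and 32.3 and 26.2 with neither. The direction of the Egr3 values therefore rests on a single probe set. Nab1 was also read by a probe set at 157 and 281 with OHT, against 147 and 163 without, where the groups overlapped, and by another that did not exceed 37.4.

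**Figure D3:**
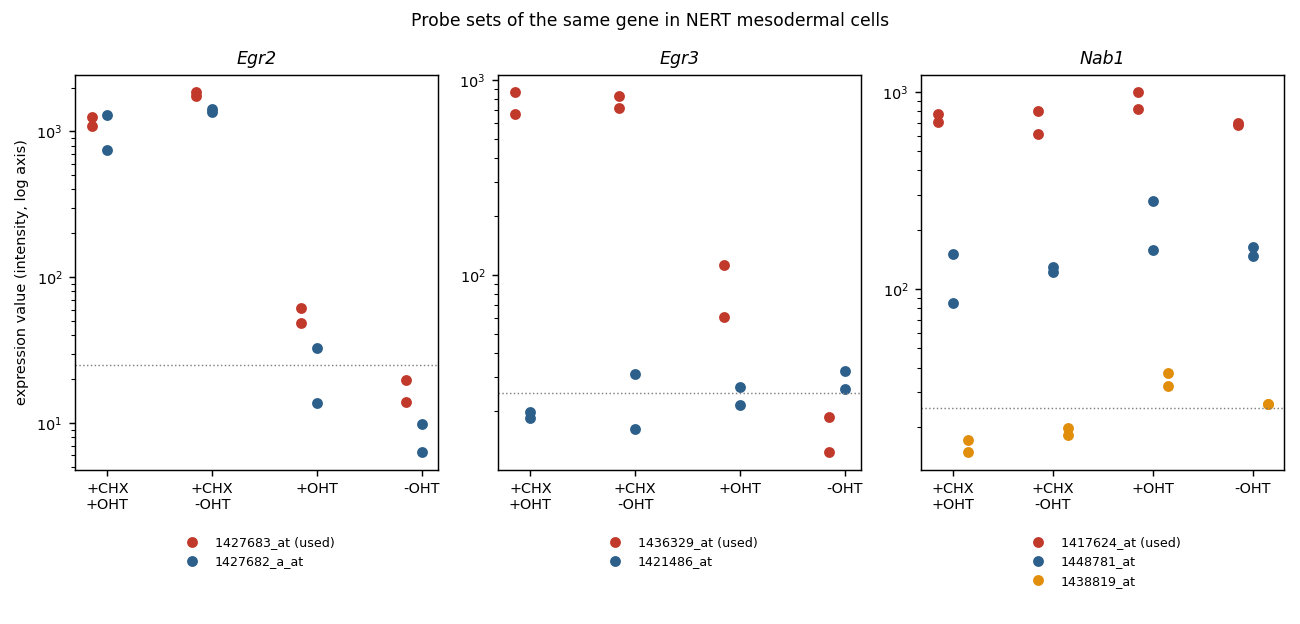
Expression value (intensity, log axis) of each probe set of Egr2, Egr3 and Nab1 in the 4 groups of NERT mesodermal cells, with 2 arrays a group and the dotted line at 25. Both Egr2 probe sets follow the same order, whereas the Egr3 probe set that was not used stays between 16.2 and 32.3.

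The response to OHT in ESC carrying NERT is likewise a description. With OHT Egr1 was higher in both media, at 789.6 in ESCe with OHT, against 483 without, and 961 in ESCm with OHT, against 619.9 without (1.64-fold and 1.55-fold). The mean log2 change over both media was 0.65 (SE 0.13). Egr3 had 43.2 in ESCe with OHT, against 16.9 without, and 42.7 in ESCm with OHT, against 13.5 without, at least 1.73-fold and at least 1.71-fold. All 4 of these Egr3 values lay below 50, the level the filter on low values asks for. The other Egr3 probe set was lower with OHT in both media. It had 13.45 in ESCe with OHT, against 27.02 without, and 16.43 in ESCm with OHT, against 31.33 without. Nab1 had 396 and 358 with OHT in ESCe and ESCm, against 295 and 300.01 without (0.32, SE 0.16). Nab2 had 235 and 204 with OHT, against 172 and 165 without (0.33, SE 0.21). Egr2 and Egr4 did not exceed 25 in NERT ESC, with 21.9 and 24.2 for Egr2 with OHT, against 5.39 and 17.7 without, and 24.1 and 23.4 for Egr4 with OHT, against 11.5 and 22.25 without. All 6 members passed the filter on low values, Egr2 and Egr3 through their values in mesodermal cells with OHT or CHX and Egr4 through those with CHX.

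Of the 6 members 1 was called higher in ESC, Egr1, where 0.721% of genes were called higher and 0.047% lower. Nothing is read from that count, and the call was lost in 13 of 16 alternative settings, among them each that left out a replicate of NERT mesodermal cells with neither agent, with OHT or with CHX alone. From either medium alone the log2 change was 0.61 (ESCm) and 0.68 (ESCe), with no call. The neuroectoderm markers summed to 738.5 in ESCe with OHT, against 400.7 without, and to 687.2 in ESCm with OHT, against 368.5 without. Of these 3 markers 1 was called higher, and their part in the Egr1 values was not tested.

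In control cells OHT moved none of the members past the test. Egr1 had 444 in control ESCm with OHT, against 509 without, and 137 in control mesodermal cells with OHT, against 139 without (-0.10, SE 0.13). Egr3 had 10.8 and 13.5 with OHT in the 2 populations, against 12.7 and 9.83 without. Nab1 had 290.2 and 368 with OHT, against 279 and 319 without (0.12, SE 0.16), and Nab2 164 and 104 with OHT, against 156 and 113 without (-0.01, SE 0.21). Egr2 stayed below 25 in control cells, and Egr4 had 28.1 and 7.66 with OHT, against 26.5 and 12 without, so no ratio is given for Egr2, Egr3 and Egr4. By limma 0 of 6 members were called and 0 had an unadjusted p under 0.05. Of all 25847 probe sets 0 were called, 0% of genes, with 308 at an unadjusted p under 0.05. Egr2, Egr3 and Egr4 lay at 28.1 or below in control cells and passed the filter only through NERT mesodermal cells with OHT or CHX. Their lack of a call therefore carries little information. The same holds for these genes in the counts for NERT ESC and between populations, lines and media. The response of NERT ESC minus that of control cells was 0.75 for Egr1 (SE 0.18). No member was called for this difference (0 of 6 by limma, 2 at an unadjusted p under 0.05, one of them Egr3), where 0.212% of genes were called higher and 0.00784% lower, so that a difference between NERT ESC and control cells was not shown.

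**Figure D4:**
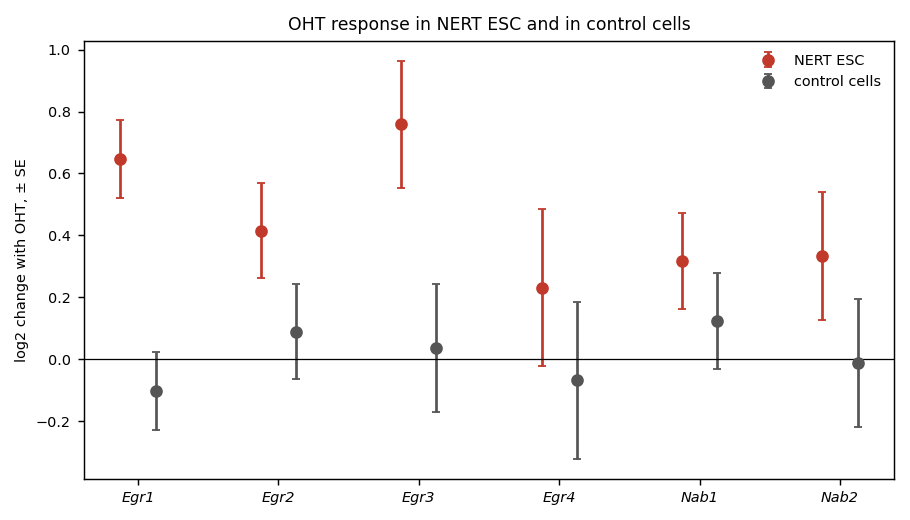
Log2 change of value plus 25 with OHT (± SE) in NERT ESC, as the mean over ESCe and ESCm, and in control cells, as the mean over ESCm and mesodermal cells. Egr1 lies at 0.65 in NERT ESC and -0.10 in control cells, and the values of Egr2, Egr3 and Egr4 behind the plot lie below 50 on all these arrays.

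Without OHT or CHX, mesodermal cells held less Egr1 than ESC in both lines. The ESC had been washed and moved into their medium 4 h before. Cell population and change of medium therefore cannot be told apart, here or for Nab1 and Nab2 below. In the NERT line Egr1 stood at 195 and 184 in mesodermal cells, against 483 in ESCe and 619.9 in ESCm, a log2 change of -1.42 (SE 0.13, limma adjusted p = 3.42e-06). These NERT arrays were also the baseline of the responses that chose the members, so this p-value is not independent of that choice. In the control line Egr1 stood at 139 in mesodermal cells, against 509 in ESCm, and the fit over arrays with and without OHT gave -1.62 (SE 0.13, limma adjusted p = 4.23e-06). The uninduced levels of Egr2 and Egr3 were below 25 in mesodermal cells and ESC alike. Egr4 had 7.49 and 3.6 in NERT mesodermal cells, against 11.5 and 22.25 in NERT ESC, all below 25, so no ratio is given.

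Nab1 and Nab2 ran the other way in the NERT line, where their p-values are likewise not independent of the choice of members. Nab1 stood at 677 and 693 in NERT mesodermal cells, against 295 in NERT ESCe and 300.01 in NERT ESCm (1.14, SE 0.16, limma adjusted p = 0.000108). Nab2 stood at 243 and 305 in NERT mesodermal cells, against 172 and 165 in NERT ESC (0.62, SE 0.21, limma adjusted p = 0.0326), and this call was lost without replicate 2 of the uninduced mesodermal cells (adjusted p = 0.204), without the ESCe or the NERT ESCm arrays (0.101 and 0.141), with quantile normalization (0.122) and with the 12 conditions as groups (0.0745). So 2 of 6 members were higher and 1 lower, where 27.8% of genes were higher and 12.7% lower and the median gene changed by 0.10. In the control line Nab1 had 319 in mesodermal cells, against 279 in ESCm (0.25, SE 0.16, limma adjusted p = 0.302), and Nab2 113, against 156 (-0.47, SE 0.21, limma adjusted p = 0.13). There 1 of 6 members was called lower, Egr1, where 8.36% of genes were lower and 14.9% higher.

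Uninduced NERT mesodermal cells held more of both corepressors than control mesodermal cells. The NERT arrays here were also the baseline of the responses that chose the members, so these p-values are not independent of that choice. Nab1 stood at 677 and 693 in NERT cells, against 319 in control cells, 2.15-fold (1.01, SE 0.17, limma adjusted p = 0.0054). That call rests on the probe set used. Another Nab1 probe set was higher without a call (0.63, SE 0.26, limma adjusted p = 0.213). The lowest Nab1 probe set had a mean of 26.08 in NERT cells, against 27.35 in control cells. Nab2 stood at 243 and 305 in NERT cells, against 113 in control cells, 2.43-fold (1.15, SE 0.23, limma adjusted p = 0.0125). Egr1 had 195 and 184 in NERT cells, against 139 in control cells (0.35, SE 0.14, limma adjusted p = 0.193). Of the 6 members 2 were called higher, where 5.66% of genes were higher and 1.89% lower. Nab2 was no longer called without replicate 2 of the uninduced NERT cells (adjusted p = 0.0838), and neither gene was with the 12 conditions as separate groups (0.0626 for Nab1 and 0.107 for Nab2). Each line is a clone, and the control cells gave 1 array without OHT and 1 with it, so line and clone cannot be told apart.

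Other measures moved with this difference. The streak markers summed to 3113.9 to 4163.8 in uninduced NERT mesodermal cells, against 1466.8 in control mesodermal cells without OHT, with 5 of 7 called higher. The ESC markers summed to 2825.9 to 3847.3 in NERT cells, against 6920.7 in control cells, with 4 of 6 called lower. The Notch target Nrarp was higher in uninduced NERT mesodermal cells by 2.54 (SE 0.21, limma adjusted p = 5.51e-05), while Hes5 changed by 0.13 (SE 0.20, limma adjusted p = 0.816). The part of these in the Nab1 and Nab2 difference was not tested. Between the media, uninduced NERT ESC had 483 for Egr1 in ESCe, against 619.9 in ESCm (-0.31, SE 0.13, limma adjusted p = 1), and limma called 0 of 6 members and 0% of all genes, with 1 member and 768 probe sets at an unadjusted p under 0.05.

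The genes around the family were followed as 3 lists, of which 14 of 14 upstream regulators, 12 of 12 protein partners and 18 of 22 described targets passed the filter on low values. With OHT alone in NERT mesodermal cells, 0 of 14 upstream regulators (Srf, Elk factors, Creb1 and kinases of the MAP kinase route) and 0 of 12 protein partners (such as Chd4, Ep300 and Wt1) were called by limma, and 0 and 0 had an unadjusted p under 0.05. Their median changes were -0.15 and -0.09, against -0.05 for all genes. Of 18 genes described as Egr targets 2 were called higher, where 0.747% of all genes were higher and 0.386% lower. By limma 8 of these 18 had an unadjusted p under 0.05, as had 1924 of all 23971 probe sets. The 2 called were Pdgfb, a growth factor subunit (2.17, SE 0.37, limma adjusted p = 0.0208), and Ptgs2, which encodes an enzyme of prostaglandin synthesis (1.16, SE 0.21, limma adjusted p = 0.0292). The median of this list was 0.01. With CHX on both sides OHT moved 0 genes of the 3 lists past the test in limma, with 0, 0 and 9 at an unadjusted p under 0.05. Of all 23971 probe sets 1413 had such a p there, and 0.738% of genes were called higher and 0.0574% lower.

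With CHX alone genes of each list passed the test, where 24.3% of all genes were higher and 9.48% lower. The shares of regulators and partners called lay near that background, so nothing particular to these lists is read from them. Of the 14 upstream regulators 3 were higher, Srf, the factor that binds the CArG box (1.17, SE 0.26), its partner Elk4 (1.16, SE 0.22) and the CRE-binding factor Creb1 (0.77, SE 0.24), and Map2k2, a kinase of the MAP kinase route, was lower (-1.16, SE 0.27). Of the 12 partners 3 were higher, Wt1, a zinc finger factor with an Egr-like binding site (1.36, SE 0.19), Ddx20 (0.86, SE 0.17) and the coactivator Ep300 (0.59, SE 0.15). Of the 18 described targets 8 were higher, led by the adhesion molecule Icam1 (3.37, SE 0.37), Ptgs2 (2.60, SE 0.21) and the hindbrain gene Hoxb2 (1.97, SE 0.19), and the growth factor Tgfb1 was lower (-1.47, SE 0.24). The list medians were 0.17, 0.05 and 0.60, against 0.11 for all genes.

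In NERT ESC 1 of 18 targets was called higher with OHT, the angiogenic factor Vegfa (0.88, SE 0.16, limma adjusted p = 0.0346). No gene of the other lists was called (0 of 14 and 0 of 12 by limma, 1 and 0 at an unadjusted p under 0.05). Of all genes 0.721% were called higher in that contrast and 0.047% lower. In uninduced NERT against control mesodermal cells 3 of 18 targets and 1 of 14 upstream regulators were called higher, beside Nab1 and Nab2. Of all genes 5.66% were called higher there and 1.89% lower. The targets were Hoxb2 (1.77, SE 0.18), Tgfb1 (1.71, SE 0.23) and Cd44, a hyaluronan receptor (1.46, SE 0.24), and the regulator was the kinase Rps6ka3 (1.04, SE 0.22). No partner was called by limma there, with 1 at an unadjusted p under 0.05.

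Across the 16 arrays the 4 Egr genes went together, with Pearson's r of log2 values between 0.857 (Egr1 and Egr4) and 0.981 (Egr2 and Egr3). These values rest largely on the 4 CHX arrays. Over the other 12 arrays Egr1 and Egr3 had an r of 0.769 and Egr2 and Egr3 of 0.877, while Egr4, near background there, had 0.173 with Egr1 and -0.417 with Egr2. Nab1 and Nab2 had 0.651 over 16 and 0.862 over 12 arrays. Nab2 went with Egr3 at 0.079 over 16 and at 0.798 over 12 arrays. The arrays share cell populations and treatments, so no test is given.

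The genes most like each member were sought by the same measure over 16 arrays, taking the 3 with the highest r. For Egr1 they were Dnajb5 (0.964), Rhob (0.96) and Arid5a (0.956). For Egr2 they were the immediate early genes Fos (0.99), Jun (0.989) and Atf3 (0.987). For Egr3 they were Tmed5 (0.983), Jun (0.983) and Rhob (0.98). The 3 genes most like Egr4 were the neurotrophic factor Gdnf (0.973), Med18 (0.972) and Sncaip (0.968). Those most like Nab1 were Ablim1 (0.981), Xpr1 (0.977) and Nck2 (0.977). Nab2 had the least close companions, Rgs5 (0.905), Sema7a (0.894) and Ccng1 (0.894). For the Egr genes such values rest largely on the arrays with CHX, as above, and the response to CHX was used to choose the members. A high r with other genes that CHX raised therefore follows from that choice. Likeness over the arrays without CHX was not tested, so nothing is read from the companions of the Egr genes.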

How the data were processed

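The authors deposited model-based expression intensities for 45037 probe sets of 16 Affymetrix mouse arrays, which dChip had computed after an invariant-set normalization with the OHT-treated control mesoderm array as baseline. Values were used as deposited, and detection calls were not used. In the platform annotation 34945 probe sets carried a single symbol, 932 carried several and 9160 carried none. Probe sets reaching a mean of 50 in some group were kept, and log2(value + 25) was tested in limma 3.58.1 (R 4.3.3; lmFit, then eBayes allowing a trend), two-sided and with Benjamini-Hochberg adjustment over all probe sets. The 8 NERT mesoderm arrays were fitted alone (23971 probe sets, 4 residual degrees of freedom). All 16 arrays were fitted with a common OHT effect in NERT ESC and another in control cells (25847 probe sets, 6 residual degrees of freedom), where single arrays are taken to vary like the replicated groups. The number of arrays limits the precision. The fits were tested on simulated data. Changes were placed there only in probe sets well above background on every array, so genes as low as Egr2, Egr3 and Egr4 were not covered. Members, gene lists and tests were chosen with earlier results of these data known. All probe sets of the members were named, and up to 4 called genes per list and contrast by size of change. Alternatives were other pseudocounts, no filter, quantile normalization, eBayes without trend, the replicate block, the 12 conditions as groups, any probe set of a gene and arrays left out.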

Additional observations from a re-analysis of the deposited data

How the results depend on the processing

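Of 186 recounts of members called over 12 comparisons, 157 stayed within 1.5 times the count reported and 29 did not, and in 7 comparisons all did. The 2 contrasts of CHX, alone or with OHT, against cells with neither agent gave 4 calls under each alternative run, except 5 for CHX alone with quantile normalization. The sizes for low genes moved with the pseudocount: with OHT alone Egr2 changed by 1.47 and 0.41 and Egr3 by 2.12 and 0.68 with pseudocounts of 5 and 100, and with CHX alone Egr4 by 5.61 and 2.51. For OHT in NERT ESC the count of 1 became 0 with a pseudocount of 100, no filter, quantile normalization, eBayes without trend, the 12 conditions as groups, and without the ESCe or the NERT ESCm arrays, and was 0 to 1 with each NERT mesoderm array left out. For OHT with CHX the count of 1 became 0 with a pseudocount of 5, no filter and quantile normalization, and was 0 to 1 with an array left out. For OHT without CHX the count of 3 became 1 with a pseudocount of 100 and was 1 to 3 with an array left out (1 without either replicate of the group with neither agent or without replicate 2 of the OHT group). For NERT against control mesodermal cells the count of 2 became 0 with the 12 conditions as groups and was 1 to 2 with an array left out. For control mesodermal cells against ESCm the count of 1 became 2 with a pseudocount of 5, through Egr4, whose values there lie at 28.1 or below and which passed the filter through the CHX arrays, and was 1 to 2 with an array left out (2 without either array with CHX and OHT). For NERT mesodermal cells against NERT ESC the count of 3 was 2 to 4 with an array left out.

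Signs also turned for changes near 0. With an array left out, OHT with CHX gave -0.194 to 0.059 for Egr1, -0.194 to 0.1612 for Egr3, -0.1253 to 0.2574 for Nab1 and -0.1855 to 0.2103 for Nab2. Nab1 lay between -0.157 and 0.2258 for CHX alone with an array left out and at -0.0681 for both agents against neither with quantile normalization. For NERT mesodermal cells against NERT ESC, Egr2 was at -0.0362 without the ESCe arrays, and Egr3 at -0.0486 without the NERT ESCm arrays and between -0.1002 and 0.123 with an array left out. For control mesodermal cells against ESCm, Egr2 was at -0.0608 with the 12 conditions as groups and Egr3 at 4e-04 with quantile normalization. For NERT against control mesodermal cells Egr2 lay between -0.022 and 0.176 with an array left out. For ESCe against ESCm, Nab1 was at -0.0213 with quantile normalization and -0.0206 with the 12 conditions as groups. The cause of these moves was not tested.

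Arrays of the same replicate number did not deviate together in every pair of groups (r between 0.007 and 0.513 over 23971 probe sets), so the numbers were not taken as pairs. The highest r, 0.513, was that of the groups with OHT alone and with neither agent, where pairing may matter. The next highest was 0.209. With the replicate block the counts of members called were 3, 1, 4, 4 and 1 for OHT without CHX, OHT with CHX, CHX alone, both agents and the difference of OHT responses, as without it. Values near 25 (Egr2, Egr3 and Egr4 without CHX) carry little information on direction.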
